A study of Homo sapiens with 9 samples.

Results

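The 10 genes described here encode the enzymes that write, copy and remove DNA methylation, and were taken by gene name from a table of read counts for 58735 genes. They are DNMT1, UHRF1 and UHRF2, DNMT3A and DNMT3B, TET1, TET2 and TET3, and TDG and MBD4. All 10 names matched 1 gene each, and all 10 genes had enough counts to be tested in every comparison. RNA was sequenced from MIA PaCa-2 cells, an established human pancreatic cancer line labelled as wild type, after 24-h with 1 μM SCH772984, which inhibits ERK1/2, with compound 1, a dual inhibitor of TBK1 and IKKε, at 1 μM, or with 0.1% dimethyl sulfoxide (DMSO), the vehicle. There were 3 libraries in each group. Nothing in the labels says whether the replicates were separate cultures. The p-values therefore measure only the spread between these libraries, which may be technical.

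In mammalian cells most methyl groups on DNA sit on the cytosine of CpG dinucleotides. DNMT1 copies the pattern onto the new strand after replication, and UHRF1 brings it there by binding hemimethylated DNA and ubiquitinating histone H3. UHRF2 is a relative of UHRF1. DNMT3A and DNMT3B set methylation at sites that lack it. The TET dioxygenases oxidize 5-methylcytosine, using 2-oxoglutarate as a cosubstrate. TDG then cuts out the most oxidized forms, and TDG and MBD4 both remove thymine from the G:T mismatches that arise when 5-methylcytosine is deaminated. The measurements here are of RNA only. Methylation itself, protein and enzyme activity were not measured in these samples.

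Total counts per library were 9464432 to 10286223 with DMSO, 9652741 to 9840769 with compound 1 and 11056977 to 13887859 with SCH772984. Levels are given as TMM-normalized CPM, which puts all libraries on one size scale, and per kb of exon length where genes are compared with each other. A gene was called where the quasi-likelihood test of edgeR gave an adjusted p (Benjamini-Hochberg, over all genes tested) under 0.05. Of the genes that mark the line, KRT8, KRT18 and VIM summed to 5636 to 5986 CPM with DMSO and 2917 to 3233 with SCH772984, CDKN2A, which is deleted in the line, had 0 counts in all 9 libraries, and CDH1 had 0 with DMSO and at most 5 elsewhere. Leukocyte, endothelial, acinar, beta cell and fibroblast markers (PTPRC, PECAM1, PRSS1, CPA1, INS and COL1A1) summed to at most 4 counts per DMSO or compound 1 library. With SCH772984 they summed to 28 to 48, all from COL1A1. The first replicate of compound 1 stood apart from replicates 2 and 3, with 11.1 and 8.29 times the squared difference that counting noise gives, against 2.78 between those. The 6 ERK output genes DUSP6, SPRY4, ETV4, ETV5, PHLDA1 and EGR1 were all lower with SCH772984 and 0 of 6 were called with compound 1, in edgeR (at an unadjusted p under 0.05, 1 was higher). Mitochondrial genes took 3.33% to 3.98% of the counts with DMSO, 3.41% to 3.92% with compound 1 and 6.23% to 7.52% with SCH772984, and their part in the results was not tested.

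In DMSO the machinery that copies methylation was the most abundant by far. UHRF1 had 64.8 ± 2.07 CPM per kb (SD, n = 3) and DNMT1 had 53.1 ± 1.14, above 94.8% and 93.4% of the expressed genes. MBD4 followed with 15.4 ± 1.47, UHRF2 with 11.3 ± 0.225 and TDG with 7.70 ± 0.561 CPM per kb. TET3 and DNMT3B, with 3.69 ± 0.410 and 3.64 ± 0.453, overlapped, and so did TET2 and DNMT3A, with 1.03 ± 0.0638 and 0.885 ± 0.134. TET1 was the lowest at 0.118 ± 0.0537 CPM per kb, with 16, 9 and 6 counts in the DMSO libraries. The other neighbours in this order did not overlap between libraries. The order depended on the division by length, since only 2 of the 10 genes kept their place on the CPM scale.

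**Figure D1:**
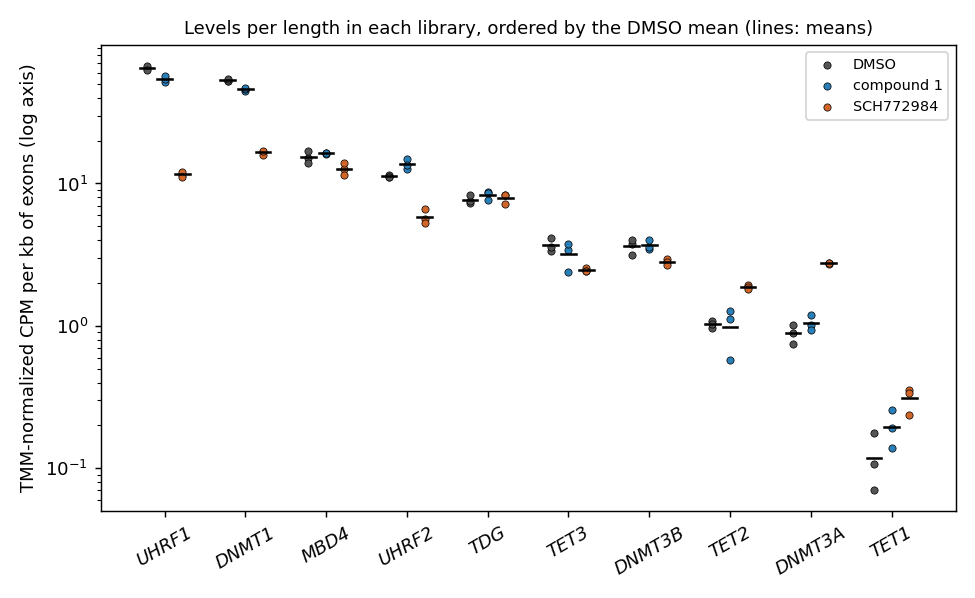
TMM-normalized CPM per kb of exons (log axis) of the 10 enzyme genes in each of the 9 libraries, ordered by the DMSO mean, with lines at the group means. UHRF1 and DNMT1 lead with DMSO and compound 1, whereas with SCH772984 DNMT1 averages 16.5 and UHRF1 11.6, near MBD4 at 12.7 CPM per kb.

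With SCH772984, 9 of the 10 genes changed relative to DMSO. The 6 lower genes were UHRF1, DNMT1, UHRF2, TET3, DNMT3B and MBD4, and the 3 higher genes were DNMT3A, TET1 and TET2, while TDG was not called. These counts stand against a wide background, since 35.5% of the 13834 genes tested were lower and 37.2% were higher after adjustment in edgeR. The median log2 fold change was -0.33 over the 10 genes and 0.03 over all genes tested. Each change is relative to the other genes in the table. When counts were scaled by library size alone, the median over all genes was 0.20 and 61.5% of the called genes were higher, in place of 51.2%. When trends of the counts with length and GC content were removed, which was added as an alternative once the data had been seen, the median was -0.13 and the share 41.7%.

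UHRF1, the hemimethylated-DNA reader, fell the most. It had 331, 345 and 324 CPM in the DMSO libraries and 59.3, 62.4 and 57.4 with SCH772984. The groups were far apart, and the highest treated library held less than the lowest DMSO library by several-fold. UHRF1 fell by 2.49 on the log2 scale (standard error 0.07, edgeR adjusted p = 5.49e-32), which was 5.61-fold, and 0.788% of all genes tested had a log2 fold change at or below this. DNMT1, the maintenance methyltransferase, had 515, 512 and 533 CPM with DMSO and 163, 156 and 167 with SCH772984. It fell by 1.69 on the log2 scale (standard error 0.06, edgeR adjusted p = 1.95e-27), or 3.22-fold. The ratio of UHRF1 to DNMT1 within a library, per kb, was 1.22 ± 0.0625 (SD, n = 3) with DMSO and 0.703 ± 0.0535 with SCH772984, and the 3 libraries of one group did not overlap those of the other. A stretch of 83 exon bases of DNMT1 is shared with S1PR2 on the same strand, which had 32 to 132 counts per library, against 1854 to 5036 for DNMT1.

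UHRF2, the relative of UHRF1, had 114, 111 and 110 CPM with DMSO and 55.7, 66.1 and 52.5 with SCH772984. It fell less than UHRF1, by 0.95 on the log2 scale (standard error 0.08, edgeR adjusted p = 6.10e-15), and again no treated library reached the DMSO range. The UHRF1 to UHRF2 ratio per kb consequently went from 5.75 ± 0.230 (SD, n = 3) to 1.99 ± 0.153. This ratio comes from counts of the same library, so it does not depend on how libraries are scaled.

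**Figure D2:**
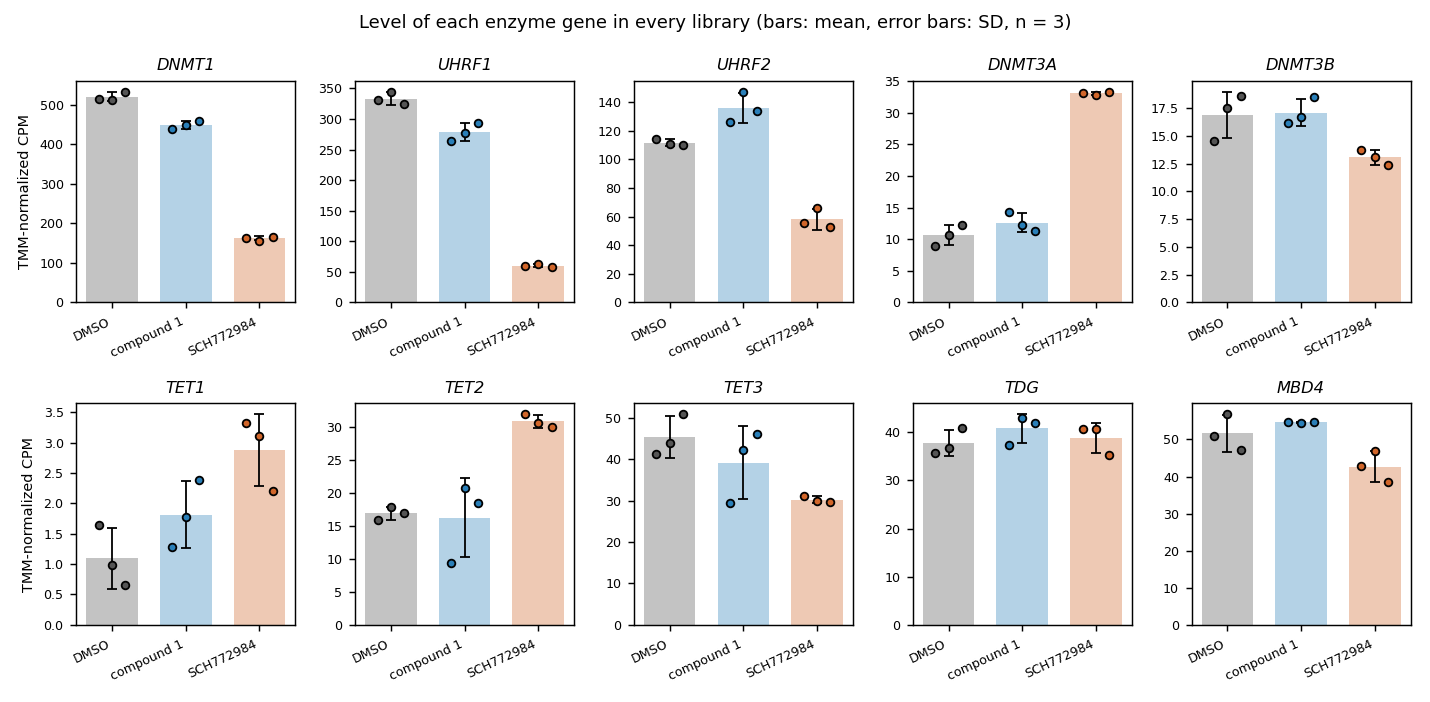
TMM-normalized CPM (linear axes from 0) of each of the 10 enzyme genes in the 3 libraries of each group, with bars at the mean and error bars of 1 SD. DNMT1, UHRF1 and UHRF2 are low in all 3 SCH772984 libraries, DNMT3A and TET2 are high there, and the groups overlap for TDG.

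Among the enzymes that set methylation anew, the 2 paralogs moved apart. DNMT3A had 9.005, 10.7 and 12.2 CPM with DMSO and 33.2, 32.9 and 33.3 with SCH772984, so that all treated libraries lay well above all DMSO libraries. It rose by 1.63 on the log2 scale (standard error 0.12, edgeR adjusted p = 3.78e-16), or 3.10-fold. DNMT3B had 14.5, 17.5 and 18.6 CPM with DMSO and 13.7, 13.1 and 12.4 with SCH772984, a much smaller gap between the groups. It fell by 0.38 (standard error 0.14, edgeR adjusted p = 0.0128). That call did not hold without DMSO replicate 3 (edgeR adjusted p = 0.0623) or with scaling by library size alone (-0.20, edgeR adjusted p = 0.180). The DNMT3A to DNMT3B ratio per kb was 0.242 ± 0.00995 (SD, n = 3) with DMSO and 0.979 ± 0.0513 with SCH772984. Per kb, the paralog that was a minority partner thus came level with the other. Which of the 2 is the more abundant depends on the division by length. Without it, DNMT3A averaged 10.6 CPM and DNMT3B 16.9 with DMSO, and 33.1 and 13.0 with SCH772984. As DNMT1 was the main DNMT transcript throughout, the sum of the 3 DNMT genes still went from 57.6 ± 1.58 to 22.1 ± 0.528 CPM per kb, and the share of DNMT1 in it from 92.2% ± 0.848 to 74.8% ± 0.847 (SD, n = 3).

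The promoters of 4 genes are printed because they mark the extremes of this response. UHRF1 and DNMT1 fell the most, and DNMT3A and TET2 rose the most among the genes with more than 10 CPM with SCH772984. Each run gives the 250 bases before the RefSeq start site (GRCh38.p14), 5′ to 3′ on the gene's strand. Capitals mark matches to TTTCCCGC or TTTGGCGC (letters of the E2F type), CCGGAAGT (ETS type) or CACGTG (E-box), on either strand. In GENCODE release 29 these genes span chr19:4903080-4962154 (UHRF1), chr19:10133345-10231286 (DNMT1), chr2:25227855-25342590 (DNMT3A) and chr4:105145875-105279816 (TET2), so the first 3 reach further upstream than the RefSeq starts used here.
UHRF1 (chr19:4909251-4909500, plus strand): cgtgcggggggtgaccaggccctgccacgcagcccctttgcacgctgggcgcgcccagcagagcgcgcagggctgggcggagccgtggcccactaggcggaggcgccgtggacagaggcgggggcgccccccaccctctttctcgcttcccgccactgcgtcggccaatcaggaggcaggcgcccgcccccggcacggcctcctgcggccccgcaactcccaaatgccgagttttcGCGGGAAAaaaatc
DNMT1 (chr19:10194954-10195203, minus strand): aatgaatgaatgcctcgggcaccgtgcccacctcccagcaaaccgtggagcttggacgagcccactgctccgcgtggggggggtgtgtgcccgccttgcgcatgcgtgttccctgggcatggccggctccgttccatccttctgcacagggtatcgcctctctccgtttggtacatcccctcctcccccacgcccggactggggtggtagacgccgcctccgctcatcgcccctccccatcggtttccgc
DNMT3A (chr2:25342484-25342733, minus strand): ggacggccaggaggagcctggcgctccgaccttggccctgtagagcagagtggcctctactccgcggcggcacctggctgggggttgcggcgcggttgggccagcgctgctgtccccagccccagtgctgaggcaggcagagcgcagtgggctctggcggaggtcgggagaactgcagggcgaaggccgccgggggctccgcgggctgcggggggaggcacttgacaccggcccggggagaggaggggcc
TET2 (chr4:105145625-105145874, plus strand): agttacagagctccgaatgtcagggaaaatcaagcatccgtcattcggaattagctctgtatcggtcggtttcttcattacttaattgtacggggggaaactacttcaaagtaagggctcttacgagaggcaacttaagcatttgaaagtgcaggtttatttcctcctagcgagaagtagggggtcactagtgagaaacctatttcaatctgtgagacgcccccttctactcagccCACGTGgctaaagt

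In the full windows of 300 bases (250 before and 50 after the start), all 10 genes had a RefSeq promoter. UHRF1 was the only 1 of the 10 with TTTCCCGC, on the opposite strand with its first base at -14 from the start, and 1.66% of 27305 promoters hold these letters. TTTGGCGC and CCGGAAGT, in 0.659% and 4.44% of promoters, were in none of the 10 windows. CACGTG was in those of TET2 (-14), TET3 (-67 and -27) and TDG (-80), against 7.43% of promoters, and GGGCGG (GC box) in those of UHRF1, UHRF2, TET2, TET3 and MBD4, against 44.6%. None of the matches printed in capitals overlapped a GGGCGG. These are letter matches, and no binding was measured. CpG dinucleotides numbered 22 to 45 in the windows of 7 genes, 13 in that of TET2, 10 in that of TET1 and 3 in that of DNMT3B, with a median of 14 over all promoters.

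The TET genes also moved apart with SCH772984. TET2 had 15.9, 17.96 and 16.9 CPM with DMSO and 32.0, 30.7 and 30.02 with SCH772984, without overlap. It rose by 0.86 on the log2 scale (standard error 0.11, edgeR adjusted p = 2.32e-09). TET3 had 41.1, 44.0 and 50.9 CPM with DMSO and 31.2, 29.8 and 29.6 with SCH772984, also without overlap but in the other direction. It fell by 0.59 (standard error 0.09, edgeR adjusted p = 2.53e-07). TET1, which carries a DNA-binding CXXC domain as TET3 does, was scarce. Its 16, 9 and 6 counts with DMSO became 40, 37 and 33 with SCH772984, a log2 fold change of 1.36 with a wide 95% interval from 0.63 to 2.08 (edgeR adjusted p = 0.000846).

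Added together per kb, the TET transcripts were 4.84 ± 0.381 CPM per kb with DMSO and 4.65 ± 0.186 with SCH772984 (SD, n = 3), a difference within the spread between libraries. What differed was the make-up of this sum. TET2 made up 21.3% ± 1.62 of it with DMSO and 40.4% ± 0.320 with SCH772984, whereas TET3 went from 76.2% ± 2.47 to 53.0% ± 0.834. Against this nearly level sum, DNMT1 went from 11.01 ± 0.675 times the TET sum to 3.56 ± 0.209 times. The shares and this ratio are free of library scaling, but the sum itself is not.

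**Figure D3:**
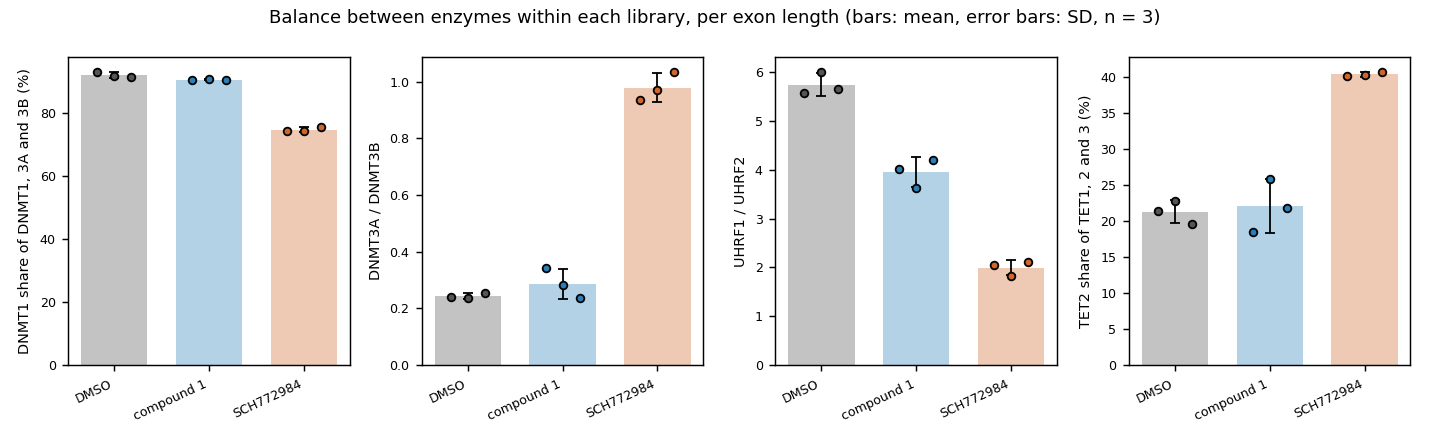
Balance between related enzymes within each library, computed per kb of exons: the DNMT1 share of the 3 DNMT genes (%), the DNMT3A to DNMT3B ratio, the UHRF1 to UHRF2 ratio and the TET2 share of the 3 TET genes (%), with bars at the mean, error bars of 1 SD and points for libraries. The SCH772984 libraries stand apart from DMSO in every panel, and compound 1 does not overlap DMSO in the UHRF1 to UHRF2 ratio, at 3.62 to 4.21 against 5.58 to 6.01, or, by a small gap, in the DNMT1 share, at 90.5% to 90.8% against 91.5% to 93.1%.

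Of the glycosylases, TDG was not called, at 37.8 ± 2.75 CPM with DMSO and 38.9 ± 3.14 with SCH772984 (SD, n = 3). Its log2 fold change was 0.03, with a 95% interval from -0.15 to 0.22 (edgeR adjusted p = 0.754). With scaling by library size alone TDG was called higher (0.21, edgeR adjusted p = 0.0403). MBD4 had 51.6 ± 4.93 CPM with DMSO and 42.7 ± 4.19 with SCH772984. It fell by 0.28 (standard error 0.09, edgeR adjusted p = 0.00423), and this call was lost with scaling by library size alone (-0.11, edgeR adjusted p = 0.266). MBD4 shares 144 exon bases with IFT122 on the opposite strand, which had 470 to 775 counts per library, and whether counting used the strand is not given in the sources used here. Reads from these bases cannot be assigned to one of them with certainty.

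**Figure D4:**
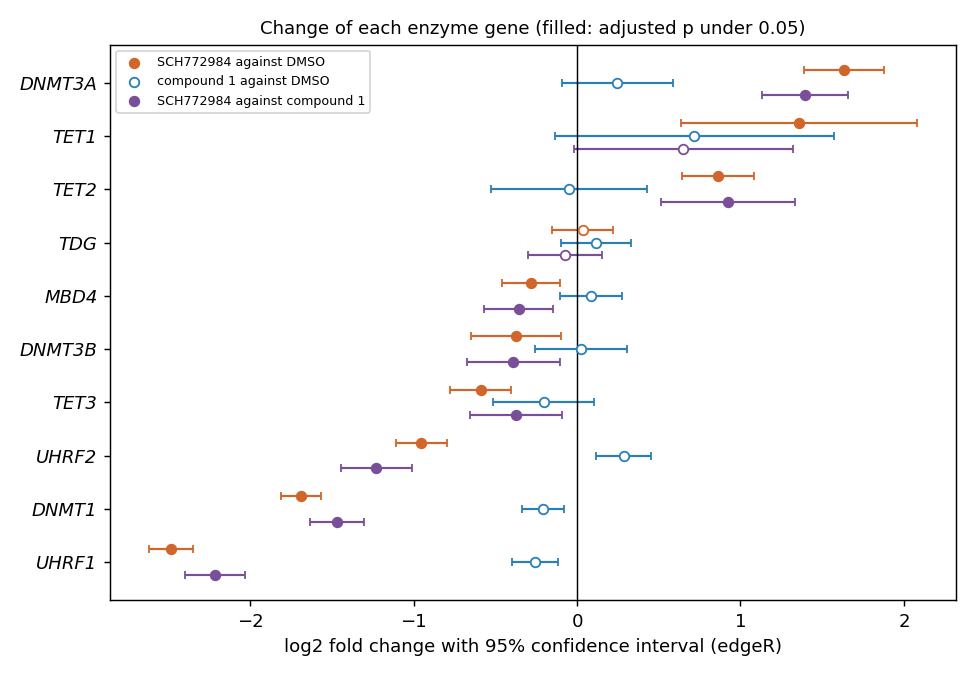
Log2 fold change of the 10 enzyme genes with 95% confidence intervals (edgeR) for SCH772984 against DMSO, compound 1 against DMSO and SCH772984 against compound 1, with filled points at an adjusted p under 0.05. With compound 1 all 10 points are open, and UHRF2 lies at 0.29 where UHRF1 lies at -0.26.

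With compound 1, none of the 10 genes was called against DMSO after Benjamini-Hochberg adjustment in edgeR. Few genes were called at all, 0.374% of 12849 as lower and 0.49% as higher. At an unadjusted p under 0.05 in edgeR, which 7.69% of all genes passed as lower and 7.35% as higher, UHRF1 and DNMT1 were lower and UHRF2 was higher. UHRF1 had 264, 277 and 293 CPM with compound 1, all below its DMSO libraries, and DNMT1 had 438, 448 and 460, also all below. The log2 fold changes were -0.26 for UHRF1 (95% interval -0.40 to -0.12, edgeR adjusted p = 0.0766) and -0.21 for DNMT1 (-0.34 to -0.08, edgeR adjusted p = 0.113). UHRF2 had 126, 147 and 134 CPM, all above its DMSO libraries of 110 to 114, with a log2 fold change of 0.29 (0.12 to 0.45, edgeR adjusted p = 0.0974). Each of these 3 was thus about 1.16-fold to 1.22-fold from DMSO. How many of all genes had compound 1 libraries wholly above or below the DMSO libraries was not counted, so this separation is description only.

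These calls changed with single libraries and with the settings. Without compound 1 replicate 1, which stood apart, DNMT1 (-0.19, edgeR adjusted p = 0.00824), UHRF1 (-0.22, 0.00453) and UHRF2 (0.34, 0.000386) all passed. In that fit many more of all genes passed too, 453 as higher and 798 as lower of 13084, against 63 and 48 of 12849 with all libraries. Without one of the other 5 libraries, 5 to 27 of all genes were higher and 3 to 24 lower. These fits left DNMT1, UHRF1 and UHRF2 uncalled, with adjusted p-values in edgeR of up to 0.411 for DNMT1, 0.415 for UHRF1 and 0.432 for UHRF2. DESeq2 called UHRF1 alone (adjusted p = 0.0412), where 117 of all genes were higher and 119 lower. So did edgeR without a filter on low counts (adjusted p = 0.0247), where 189 of 25883 genes were higher and 228 lower. With length and GC trends removed, edgeR called UHRF1 (adjusted p = 0.0162) and UHRF2 (adjusted p = 0.0068). In that fit 207 of all genes were higher and 318 lower. The UHRF1 to UHRF2 ratio per kb was 4.03, 3.62 and 4.21 with compound 1 and 5.58, 6.01 and 5.66 with DMSO. This ratio sets a gene with a lower estimate against one with a higher estimate, and it was not tested.

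The other 7 genes gave wide or near-zero estimates with compound 1. The 95% intervals of the log2 fold change were -0.09 to 0.58 for DNMT3A, -0.26 to 0.30 for DNMT3B, -0.11 to 0.28 for MBD4 and -0.10 to 0.33 for TDG. For the TET genes they were -0.14 to 1.57 for TET1, -0.53 to 0.43 for TET2 and -0.51 to 0.10 for TET3. Replicate 1 was the low library for both TET2, with 9.45 CPM against 20.8 and 18.5, and TET3, with 29.3 against 42.1 and 46.1. Without it, the log2 fold change of TET2 was 0.22 in place of -0.05, and that of TET3 was -0.03 in place of -0.21. Neither was called.

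Compared directly, the inhibitors differed for 8 of the 10 genes. Relative to compound 1, SCH772984 gave lower UHRF1, DNMT1, UHRF2, DNMT3B, TET3 and MBD4 and higher DNMT3A and TET2, where 32.6% and 33.7% of the 13863 genes tested were lower and higher in edgeR. UHRF2 differed by -1.23 (standard error 0.10, edgeR adjusted p = 1.65e-09), with the compound 1 libraries all above the DMSO ones and the SCH772984 libraries all below. UHRF1 differed by -2.22, DNMT1 by -1.47 and DNMT3A by 1.396 on the log2 scale, each with an adjusted p of at most 4.97e-09 in edgeR. TET1 was not called, with a difference of 0.65 and a 95% interval from -0.02 to 1.32 (edgeR adjusted p = 0.0812). TET2 differed by 0.92 (edgeR adjusted p = 0.000533) and TDG by -0.07, the latter not called (edgeR adjusted p = 0.566). The calls of DNMT3B, TET3 and MBD4 were nearer the threshold, with adjusted p-values in edgeR of 0.0164, 0.0186 and 0.00414. All 3 were lost with scaling by library size alone, at 0.106, 0.135 and 0.0597, and TET3 was also lost without compound 1 replicate 3 (0.115), SCH772984 replicate 2 (0.0556) or SCH772984 replicate 3 (0.0665). DNMT3B was lost without compound 1 replicate 3 (0.0641) or SCH772984 replicate 3 (0.0558), and TET1 was called without either of these (0.0492 and 0.0462).

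The genes around these enzymes were counted in 6 lists of 78 genes, of which 62 had enough counts. With SCH772984, 44 of the 62 were lower and 12 higher in edgeR after adjustment, beside 35.5% lower and 37.2% higher of all genes tested. Their median log2 fold change was -0.82, and that of all genes was 0.03. All 19 S phase genes are among the 44, so the lists differed. The median was -1.87 for S phase genes and -1.07 for cofactors of maintenance and targeting. It was -0.26 for methyl-CpG readers, 0.07 for TET partners and base excision repair, and 5.4e-05 for S-adenosylmethionine and 2-oxoglutarate supply. Among cofactors of maintenance and targeting, 9 of 11 tested genes fell and 0 rose. CDCA7, which with the remodeler HELLS opens heterochromatin for methylation, fell by 2.16 on the log2 scale, and HELLS fell by 1.45. PCNA, the clamp that DNMT1 binds at the replication fork, fell by 1.85. The H3K36 methyltransferases NSD1 and SETD2 were not called (-0.02 and 0.11), whereas NSD2 fell by 1.36. DNMT3L, the DNMT3 cofactor, and DPPA3 did not have enough counts to be tested.

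S phase genes moved with UHRF1 and DNMT1. All 19 of that list were lower with SCH772984, by 1.87 at the median, and the summed level of the list was 3609 to 3734 CPM with DMSO, 3205 to 3367 with compound 1 and 989 to 996 with SCH772984. RRM2, a subunit of ribonucleotide reductase, fell by 2.66, and MCM7, a helicase subunit, by 2.43. The part of a change in the number of cells in S phase in the UHRF1 and DNMT1 results was not tested, and in bulk RNA fewer cells that express a gene cannot be told apart from less RNA per cell. By Pearson correlation of log2 CPM over the 9 libraries, a measure dominated by the SCH772984 contrast that they share, the protein-coding genes most like UHRF1 among 9957 candidates were MCM4, GNA12 and RFWD3 (r = 0.999 for each). For DNMT1 they were FOXM1, GNA12 and MCM4 (r = 0.998). For DNMT3A they were QPRT, GABARAPL1 and MYL5 (r = 0.995 to 0.996), and for TET2 they were CEP290, APC and ATP11B (r = 0.988 to 0.991).

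**Figure D5:**
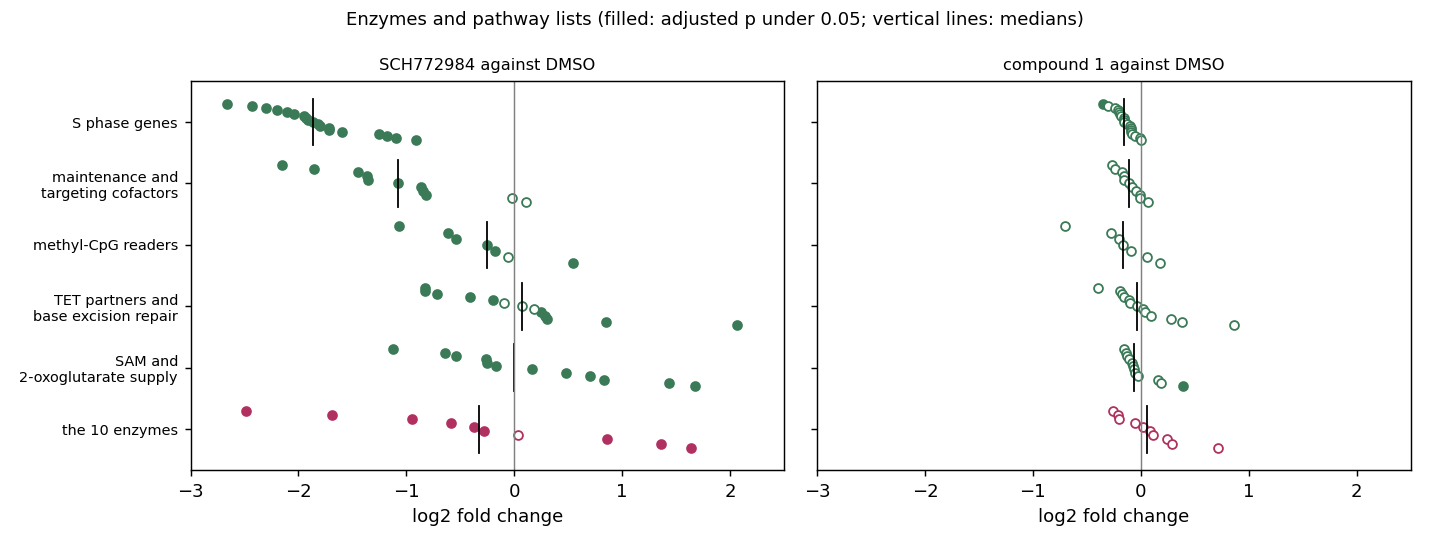
Log2 fold changes of the tested genes of 5 pathway lists and of the 10 enzymes, for SCH772984 (left) and compound 1 (right) against DMSO, with filled points at an adjusted p under 0.05 in edgeR and vertical lines at the medians. All 19 S phase genes lie left of 0 with SCH772984, while 1 of them, MCM2, is filled with compound 1.

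The lists on the removal side, on metabolite supply and of readers are given beside the same shares of all genes tested (35.5% lower and 37.2% higher), and nothing particular to them is read from their counts. Of 13 tested TET partners and base excision repair genes, 5 rose and 5 fell with SCH772984. NEIL1, a DNA glycosylase, rose by 2.07 on the log2 scale, and OGT, the O-GlcNAc transferase that binds TET proteins, by 0.24, while NEIL2 and UNG, also glycosylases, both fell by 0.83. Of the 12 genes for S-adenosylmethionine and 2-oxoglutarate supply, 6 rose and 6 fell. IDH1, which makes 2-oxoglutarate in the cytosol, rose by 1.68, and SHMT2, a mitochondrial serine hydroxymethyltransferase, fell by 1.12. MAT2A, which makes the methyl donor S-adenosylmethionine, fell by 0.17 (edgeR adjusted p = 0.0352). Of the 7 methyl-CpG readers, 5 fell and 1 rose. ZBTB38 fell by 1.07, and ZBTB4 rose by 0.54.

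With compound 1, 2 of the 62 list genes were called in edgeR after adjustment, 1 higher and 1 lower, beside 0.49% and 0.374% of all genes tested. MAT2A had 755, 838 and 723 CPM against 571, 542 and 650 with DMSO, and rose by 0.40 on the log2 scale (standard error 0.08, edgeR adjusted p = 0.0365). MCM2, another helicase subunit, fell by 0.35 (standard error 0.07, edgeR adjusted p = 0.0299). For both genes the compound 1 libraries did not overlap the DMSO libraries, which was not counted over all genes. The count of list genes depended on single libraries, with 0 higher and 0 lower without any one of DMSO replicates 1, 2 and 3 or compound 1 replicates 2 and 3, and with 3 higher and 13 lower without compound 1 replicate 1, where 453 of all 13084 genes tested were higher and 798 lower.

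As a readout that lost methylation could touch, 13 germline genes known to be silenced by promoter methylation were examined (DAZL, MAEL, SYCP3, DDX4, SOHLH2, TDRD1, RNF17, STK31, HORMAD1, BRDT, MOV10L1, MAGEA1 and MAGEA4). None had enough counts to be tested. Their counts summed to 0 to 2 per DMSO library, 0 to 2 per compound 1 library and 2 to 7 per SCH772984 library, and no gene had more than 5 counts in any library. A count of 0 allows up to 3 counts, or 0.317 CPM without TMM factors in the smallest library, for counting error only, so changes below this were not detectable at this depth.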

How the data were processed

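RNA of MIA PaCa-2 cells was sequenced by Novogene after 24-h of treatment, with 3 libraries per group. The authors deposited 1 table of raw read counts per gene, without normalization. The submitters' processing notes name HISAT2 2.0.5, featureCounts 1.5.0-p3 and hg38, and the strand setting is not given in the sources used here. All 58735 genes matched GENCODE release 29 in identifier and position. The gene lengths of the 10 enzyme genes equal the union of their GENCODE exons.

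Each comparison was fitted on its own 6 libraries with edgeR 4.0.16 in R 4.3.3 (quasi-likelihood, robust, TMM, filterByExpr with a minimum count of 10 and a minimum total of 15). The Benjamini-Hochberg adjustment covered all genes tested. Standard errors and 95% intervals come from the same fits, and levels use TMM factors over all 9 libraries. Correlations used log2(CPM + 1). The steps were tested on simulated data with 200 changed genes.

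The members, lists and tests were chosen with earlier results of these data known. All 10 enzyme genes are named, with list genes by the size of their change (up to 4 per list and direction with SCH772984, at a mean of at least 5 CPM), all list genes called with compound 1, and PCNA, HELLS, OGT and MAT2A always. NSD1, SETD2, DNMT3L, DPPA3 and the germline genes, which fall outside this rule, were named after their values were seen. The alternatives were other scalings, filters, thresholds, DESeq2 1.42.0, all libraries in one fit, the replicate block and leaving out each library, and, chosen after seeing the data, removal of length and GC trends (spline, 5 degrees of freedom). Library depth limits the precision most for TET1. Protein sequences were not used here, and 1 list gene is not reported here by name.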

Additional observations from a re-analysis of the deposited data

How the results depend on the processing

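With SCH772984 against DMSO, the 3 higher and 6 lower enzyme genes became 4 and 4 when scaled by library size alone, 2 and 2 at 2-fold or more, and 2 and 6 with at least 10 counts in every library, where TET1 was not tested. With a library left out 3 were higher and 5 to 6 lower, and the other alternatives gave 3 and 6. The log2 fold change of TDG was -0.00306 without a filter on low counts and -0.028 to 0.10 with a library left out. Of the list genes, 3 were higher and 26 lower at 2-fold, and 7 were higher with the length and GC trend removed. Of all 13834 genes tested, 2517 were higher and 1472 lower at 2-fold, and 6242 and 3911 by library size alone. With the trend removed 4278 of 13827 were higher and 5992 lower. With at least 10 counts in every library 4424 of 11970 were higher and 4295 lower.

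With compound 1 against DMSO, 0 enzyme genes were called, but 1 was lower without a filter and with DESeq2, 1 was higher and 1 lower with the replicate block and with the trend removed, and 1 was higher and 2 lower at an unadjusted p under 0.05. With a library left out 0 to 1 were higher and 0 to 2 lower. List genes numbered 3 higher and 3 lower without a filter, 2 higher with all 9 libraries in one fit, 2 higher with the replicate block, 3 higher and 7 lower with the trend removed, 4 higher and 16 lower at an unadjusted p under 0.05, 0 higher and 0 lower at 2-fold, and 0 to 3 higher and 0 to 13 lower with a library left out. With a library left out, DNMT3B ranged from -0.079 to 0.10 and TET2 from -0.28 to 0.22. Over all genes, 193 were higher and 219 lower with the block, against 63 and 48. Without a filter 189 were higher and 228 lower, with DESeq2 117 and 119, and with the trend removed 207 and 318. With all 9 libraries in one fit 91 were higher and 97 lower, and at 2-fold 6 and 0. The higher share of called genes was 56.8%, against 77.3% by library size alone and 39.4% with the trend removed.

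With SCH772984 against compound 1, 3 enzyme genes were lower when scaled by library size alone, where TET1 made 3 higher, and 1 was higher and 3 lower at 2-fold. List genes were 4 higher and 23 lower at 2-fold, and 7 higher with the trend removed, where the higher share of all called genes was 41.8% in place of 50.8%. Of all 13863 genes tested, 2293 were higher and 1396 lower at 2-fold, and 5526 and 3736 by library size alone. With the trend removed 4056 of 13856 were higher and 5658 lower. The log2 difference of TDG was 0.063 by library size alone, 0.00146 with at least 10 counts in every library and 0.0142 with the trend removed. In DMSO, 2 of 10 genes kept their place in the order without division by length. Apart from what the alternatives change by construction, the cause of these shifts was not tested.

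Same-numbered libraries did not deviate together in a steady direction. The correlations of their deviations across genes were 0.02, -0.01 and 0.04 for SCH772984 with DMSO. They were 0.14, -0.02 and 0.01 for compound 1 with DMSO, and -0.07, 0.16 and -0.10 for SCH772984 with compound 1. The numbers were therefore not taken as pairs, though these values cannot show that the libraries were unpaired. For compound 1 against DMSO, the replicate block gave 193 higher and 219 lower of all genes, against 63 and 48 without it.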
